A study of Homo sapiens with 6 samples.

Results

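AMP-activated protein kinase (AMPK) subunits, the upstream kinase LKB1 and nuclear factors of mitochondrial biogenesis were followed as 10 genes chosen by name from 61860 genes in the deposited table. They were the alpha subunits PRKAA1 and PRKAA2, the beta subunits PRKAB1 and PRKAB2, the gamma subunits PRKAG1 and PRKAG2, STK11 (encoding LKB1), NRF1, GABPA and TFAM. RNA came from SH-SY5Y, a human neuroblastoma line that takes on neuron-like features with retinoic acid. The group IR+Oligonol (3 libraries) was retinoic acid-differentiated, made insulin resistant (IR) with insulin at 100 nM and D-glucose at 30 mM over 24 h, and given Oligonol, a lychee-derived polyphenol preparation, at 500 ng/mL for 24 h. The group IR control (3 libraries) had the same differentiation and the same insulin and glucose without Oligonol, and the labels name no vehicle. Retinoic acid, high insulin and high glucose were thus common to all 6 libraries, cells that had not been made insulin resistant were not analysed here, and the model is a single cell line.

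AMPK is a heterotrimer that senses a falling energy charge. Its alpha subunit is the kinase, its beta subunit is the scaffold that also binds glycogen, and its gamma subunit binds AMP, ADP and ATP. LKB1, together with a STRAD pseudokinase and a MO25 scaffold, phosphorylates the activation loop of the alpha subunit, and the calcium-responsive kinase CAMKK2 does so in neurons. Active AMPK restrains lipid synthesis and mTORC1, promotes autophagy and acts on the coactivator PGC-1 alpha. PGC-1 alpha works with the transcription factors NRF1 and GABP, of which GABPA is the DNA-binding subunit. Both are known to drive TFAM, the protein that packages mitochondrial DNA and starts its transcription. The kinase is controlled largely by phosphorylation and nucleotides, which RNA levels do not show.

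Promoters are shown because TFAM is a textbook target of NRF1 and GABP and because PRKAA1, GABPA and STK11 passed the test described later. PRKAA2 passed it too, and its promoter was searched but is not printed. RefSeq windows (GRCh38.p14) were found for 9 of the 10 genes, with 5 alternative windows for PRKAG2, and the missing one was NRF1. The 250 bases before each start site were searched on both strands for GCGCA and GCGC parted by 1 base of any kind, an NRF1 motif, and for CCGGAAG, a GABP motif, and no window of a member held both. Capitals mark a match, each sequence runs 5′ to 3′ on the gene's strand, and the matches in TFAM and GABPA lie on the opposite strand, so the capitals are the reverse complement of the motif.
TFAM (chr10:58385160-58385409, plus strand): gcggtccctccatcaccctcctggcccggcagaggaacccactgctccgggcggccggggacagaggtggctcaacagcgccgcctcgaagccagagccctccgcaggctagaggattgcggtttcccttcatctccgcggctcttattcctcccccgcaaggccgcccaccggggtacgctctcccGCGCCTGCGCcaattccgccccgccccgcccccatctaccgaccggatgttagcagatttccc
GABPA (chr21:25734722-25734971, plus strand): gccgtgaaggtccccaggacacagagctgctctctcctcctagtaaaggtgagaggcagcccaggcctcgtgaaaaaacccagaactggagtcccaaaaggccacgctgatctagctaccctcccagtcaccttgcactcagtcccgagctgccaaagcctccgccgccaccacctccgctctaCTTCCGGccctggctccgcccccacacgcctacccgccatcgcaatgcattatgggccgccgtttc
PRKAA1 (chr5:40798178-40798427, minus strand): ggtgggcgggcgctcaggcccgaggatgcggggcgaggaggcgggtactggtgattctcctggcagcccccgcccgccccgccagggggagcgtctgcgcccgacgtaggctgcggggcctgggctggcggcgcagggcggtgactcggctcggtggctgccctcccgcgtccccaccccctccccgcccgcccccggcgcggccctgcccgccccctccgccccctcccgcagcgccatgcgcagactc
STK11 (chr19:1205528-1205777, plus strand): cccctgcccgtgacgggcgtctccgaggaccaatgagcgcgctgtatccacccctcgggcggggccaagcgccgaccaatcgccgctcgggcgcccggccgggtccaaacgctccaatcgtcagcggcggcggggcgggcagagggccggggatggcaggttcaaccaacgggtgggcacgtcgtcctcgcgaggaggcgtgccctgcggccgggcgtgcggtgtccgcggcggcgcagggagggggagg
The NRF1 motif was found in 1 member, TFAM, 63 bases before the start site, and in 5.07% of 35116 promoter windows of the same length. The GABP motif was found in 4 members, namely PRKAB1, PRKAG1, GABPA itself and PRKAG2 (1 of its 5 windows), and in 8.52% of all windows. The 9 members had 13 windows, so counts by gene and shares by window are not on the same scale. In GABPA the match lay 66 bases before the start site. PRKAA1, PRKAA2, PRKAB2 and STK11 held neither string, and TFAM held no GABP string. Only exact strings were searched, so the lack of a string does not show the lack of a binding site. The GC content of the windows was 80.8% for PRKAA1, 83.2% for PRKAA2 and 76.0% for STK11, against a median of 58.0% over all windows.

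Library facts that touch every value below are the following. Estimated counts summed to between 19457923 and 20912945 in IR+Oligonol libraries and between 22738203 and 32209583 in IR control libraries, and protein-coding genes held 10.0 to 12.3% of them in IR+Oligonol and 6.24 to 6.83% in IR control. The quasi-likelihood test of edgeR called 26% of 16574 tested genes higher and 23% lower with Oligonol (48.9% in all; adjusted p threshold 0.05), and of the 11719 protein-coding ones 27.1% higher and 27.5% lower. Direction followed the GC content of the transcript. With protein-coding genes split by GC into 10 bins of equal size, the median log2 fold change was 1.20 in the lowest bin and -1.05 in the highest. Levels are estimated counts per 1000000 of the TMM-scaled library size (CPM). TMM places the median log2 fold change of all tested genes at 0.15, the scaling implied by the authors' own signal column places it at 0.55, and library totals alone place it at 1.53. Levels in the deposited table behave as per-length abundances, so levels of different genes can be set side by side. Of 15 neuroblastoma and sympathetic neuron markers 13 were tested, and all 15 were listed above 0 in at least 1 library. Their summed level was 231.6 to 303.5 CPM in IR+Oligonol and 361.9 to 377.4 CPM in IR control. TH, the rate-limiting enzyme of catecholamine synthesis, had 0.850 to 1.25 estimated counts in IR+Oligonol and 1.10 to 1.79 in IR control. Mesenchymal markers (7 of 11 tested) summed to 53.5 to 59.4 CPM in IR+Oligonol and 67.6 to 93.0 CPM in IR control. Glial markers (1 of 7 tested) summed to 1.75 to 2.24 CPM in IR+Oligonol and 1.72 to 2.27 CPM in IR control, and immune markers (1 of 7 tested) to 0.424 to 0.839 CPM in IR+Oligonol and 0.4601 to 1.27 CPM in IR control. AQP4, CD3E and LYZ stayed under 1 estimated count in every library. These sums are relative to TMM scaling. At an unadjusted p under 0.05, 1 neuroblastoma marker was higher and 5 were lower under TMM, against 13 and 0 by library totals, 4 and 0 with the authors' scaling and 3 and 1 with the GC trend removed. For mesenchymal markers these counts were 0 and 2 under TMM, 6 and 0 by library totals, 0 and 1 with the authors' scaling and 0 and 4 with the GC trend removed. The part of these differences in the results was not tested, and in bulk RNA fewer cells of a type and less RNA per cell cannot be told apart.

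All 10 genes passed the filter on low counts. With group as the only term, 3 of them were higher with Oligonol (PRKAA1, PRKAA2 and GABPA), 1 was lower (STK11, which has a positive value by library totals alone) and 6 did not pass the test, against 26% higher and 23% lower among all tested genes. The median log2 fold change of the 10 was 0.52, against 0.15 over all tested genes. With each library's trend with GC content removed, none of the 10 passed in edgeR's test, against 2.89% higher and 2.56% lower among 16200 genes, and the unadjusted p was under 0.05 for 1 of them, PRKAA1, which was higher. Groups did not overlap for 5 members with Oligonol above (33.8% of tested genes) and for 1 with Oligonol below (28.8%). Calls over all tested genes moved with single libraries. Without control 1, 2 and 3, the calls were 3095, 1734 and 582 higher and 3016, 777 and 200 lower of 19920, 20048 and 20071. Without Oligonol 1, 2 and 3, they were 1623, 4576 and 1345 higher and 721, 4916 and 490 lower of 17134, 20431 and 17188. A call lost below thus stands beside losses over all tested genes.

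**Figure D1:**
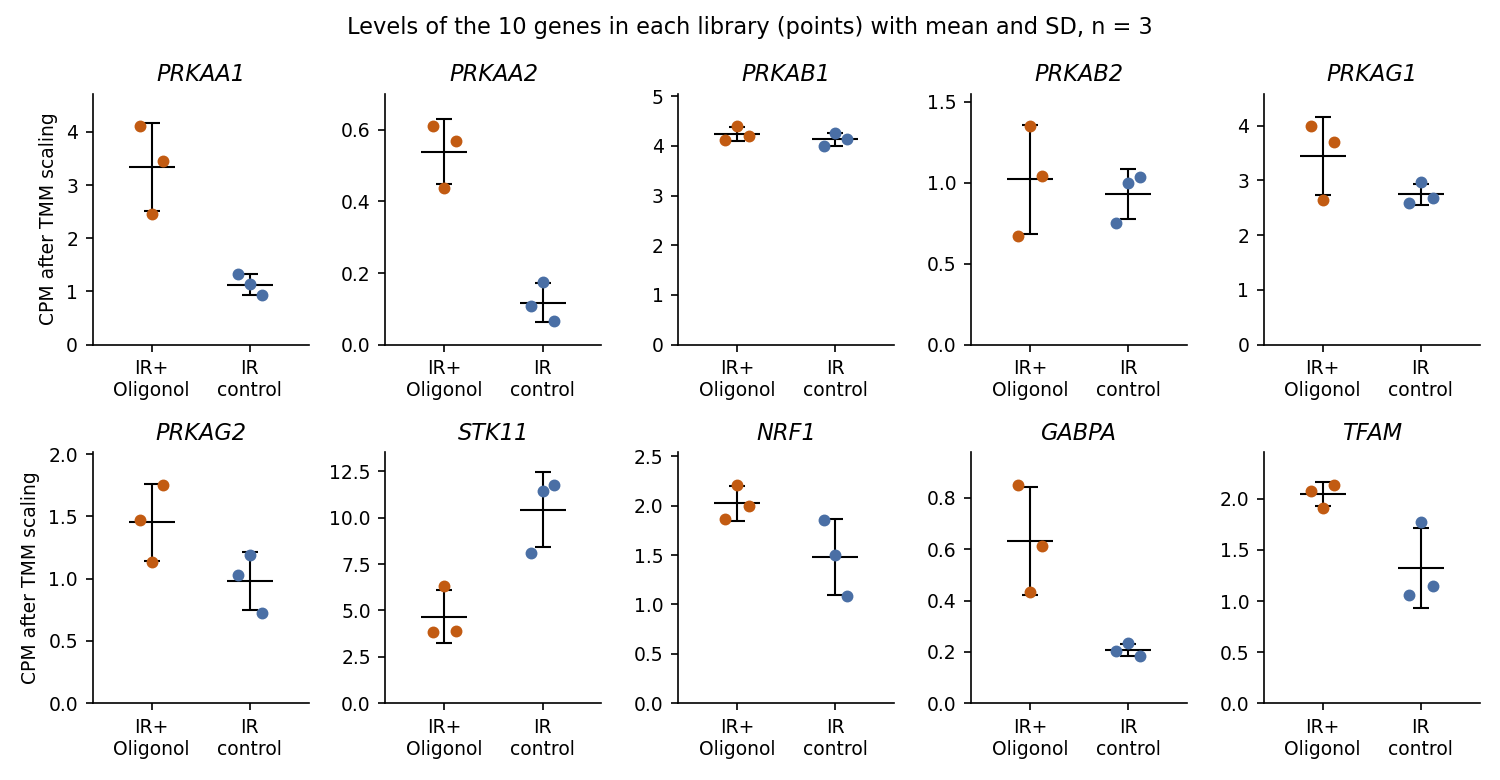
Level of each of the 10 genes (CPM after TMM scaling, linear axes from 0 that differ by gene) in the 3 IR+Oligonol and 3 IR control libraries, with mean and SD. PRKAA1, PRKAA2, NRF1, GABPA and TFAM lie above every control and STK11 below every control under TMM scaling, whereas by library totals alone STK11 has a log2 fold change of 0.19.

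PRKAA1, encoding the catalytic subunit alpha 1 (chromosome 5, 40759389 to 40798374, minus strand; GRCh38 positions here and below are whole genes in GENCODE release 29) and ENSG00000132356 in the table, rose with Oligonol. Its level was 4.10, 2.46 and 3.45 CPM in the IR+Oligonol libraries, against 1.32, 1.13 and 0.935 CPM in the IR control libraries. The groups did not overlap, and Oligonol library 2 was the lowest of its group. The log2 fold change was 1.56 (SE 0.26, adjusted p = 0.00722, edgeR), a 2.94-fold rise. The call was lost without control 3 (1.34, adjusted p = 0.0503), a fit that called 582 of 20071 tested genes higher. PRKAA1 has a transcript GC of 42.1%, and protein-coding genes of its GC bin had a median log2 fold change of 1.01. With the GC trend removed it stood at 0.66 (SE 0.17, adjusted p = 0.0701).

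PRKAA2, encoding the alternative catalytic subunit alpha 2 (chromosome 1, 56645314 to 56715335), had the lowest mean level of the 10 genes in both groups, though with Oligonol its range overlapped that of GABPA. It had 0.610, 0.438 and 0.570 CPM with Oligonol, against 0.109, 0.176 and 0.0666 CPM in controls. Every Oligonol library lay above every control. The log2 fold change of 2.11 (SE 0.44, adjusted p = 0.00993, edgeR) was the largest of the 10. Control levels correspond to 1.14 to 2.72 estimated counts. Taken over its long transcript (median 9313.5 nt), these come to about 39.8 to 95.05 reads, against 292.8 to 453.3 with Oligonol. The call was lost without control 3 (1.68, adjusted p = 0.0570), Oligonol 1 (2.00, adjusted p = 0.0577) or Oligonol 3 (2.05, adjusted p = 0.0606). Its transcript GC of 35.02% was the lowest of the 10, in a GC bin with a median of 1.20, and with the GC trend removed it stood at 0.92 (SE 0.35, adjusted p = 0.280).

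PRKAB1, encoding the scaffold beta 1 (chromosome 12, 119667864 to 119681624), had nearly the same level in all libraries. It measured 4.12, 4.39 and 4.21 CPM with Oligonol, against 4.004, 4.27 and 4.14 CPM in controls. The groups overlapped, and the log2 fold change was 0.03 (SE 0.15, adjusted p = 0.867, edgeR). This holds relative to TMM scaling, since the value was 0.43 with the authors' scaling (adjusted p = 0.0423), 1.42 by library totals and -0.035 with RLE scaling. PRKAB2, encoding beta 2 (chromosome 1, 147155106 to 147172550), had 0.673, 1.35 and 1.04 CPM with Oligonol and 0.750, 1.00 and 1.03 CPM in controls. Oligonol 1 was the lowest and Oligonol 2 the highest of all 6. Its log2 fold change was 0.12 (SE 0.32, adjusted p = 0.769), and it stood at -0.72 (adjusted p = 0.275) with the GC trend removed. PRKAA1 and PRKAB2 share a transcript GC of 42.1% and so the same GC bin, with log2 fold changes of 1.56 and 0.12.

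PRKAG1, encoding the nucleotide-binding gamma 1 (chromosome 12, 49002274 to 49018807), had 3.99, 2.64 and 3.70 CPM with Oligonol and 2.59, 2.96 and 2.67 CPM in controls. Oligonol 1 and 3 lay above the controls, and Oligonol 2 lay among them. Its log2 fold change was 0.34 (SE 0.21, adjusted p = 0.203, edgeR) and -0.18 (adjusted p = 0.508) with the GC trend removed. PRKAG2, encoding gamma 2 (chromosome 7, 151556124 to 151877125), spans 321.0 kb, the longest of the 10 loci. It had 1.47, 1.14 and 1.75 CPM with Oligonol and 1.03, 1.19 and 0.728 CPM in controls, with 1 overlapping library in each group. Its log2 fold change was 0.60 (SE 0.28, adjusted p = 0.108), and 0.30 (adjusted p = 0.498) with the GC trend removed. An antisense gene, PRKAG2-AS1, overlaps one end of PRKAG2 and averaged 0.226 CPM with Oligonol and 0.465 CPM in controls. A second one, PRKAG2-AS2, lies wholly within PRKAG2 and averaged 0.0894 CPM with Oligonol and 0.0171 CPM in controls. No source used here says whether counting used the strand, so PRKAG2's own level is uncertain. PRKAG3, encoding the gamma 3 subunit known from skeletal muscle, was listed at 0 in all controls and at no more than 0.310 estimated counts with Oligonol.

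Shares within a library do not depend on scaling. PRKAA1 made up 87.1, 84.9 and 85.8% of alpha transcripts in IR+Oligonol libraries, against 92.4, 86.5 and 93.3% in IR control libraries. PRKAB1 made up 80.9% ± 4.77 of beta transcripts with Oligonol and 81.7% ± 2.20 in controls (SD, n = 3 each). PRKAG1 made up 70.3% ± 2.62 of gamma transcripts with Oligonol and 73.9% ± 4.10 in controls. Exact 2-sided permutation tests gave p = 0.2 for alpha (0.6 after Benjamini-Hochberg adjustment over the 3 shares), p = 0.9 for beta (0.9 adjusted) and p = 0.4 for gamma (0.6 adjusted), where 3 against 3 cannot go below 0.1. The alpha 1, beta 1 and gamma 1 isoforms were thus the more abundant of their class in all 6 libraries on the per-length scale.

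The balance between classes was described after its values were seen, with no test. Alpha transcripts held 31.5, 23.3 and 27.3% of the summed level of the 6 subunit genes with Oligonol, against 14.6, 12.2 and 10.5% in controls. Beta transcripts held 32.0, 46.2 and 35.6% with Oligonol, against 48.5, 49.1 and 54.0% in controls. Gamma transcripts held 36.5, 30.4 and 37.1% with Oligonol, against 36.9, 38.7 and 35.5% in controls. Alpha, the catalytic class, was thus the scarcest class in every library of both groups, though close to beta in Oligonol 1. Its share was higher in each Oligonol library than in any control. For the same pair of subunits, PRKAA1 per PRKAB1 was 0.995, 0.559 and 0.821 with Oligonol, against 0.330, 0.265 and 0.226 in controls. These ratios need no scaling, but they compare transcripts of 42.1 and 51.8% GC, and the part of the GC trend in them was not tested.

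**Figure D2:**
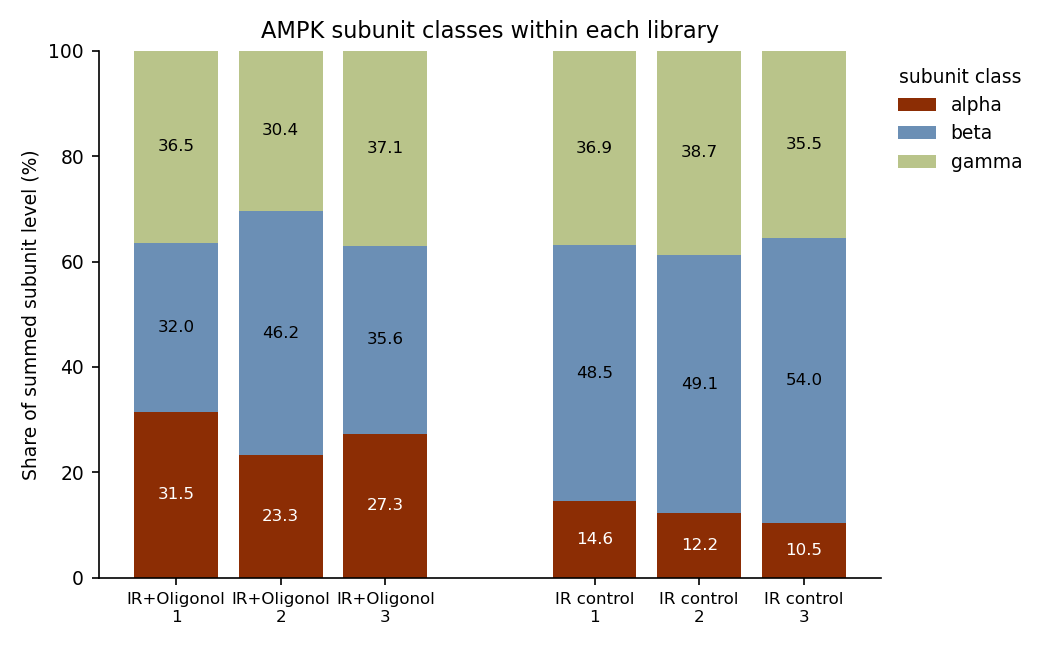
Share of the summed transcript level of the 6 AMPK subunit genes held by the alpha, beta and gamma classes in each library (percent, stacked to 100). Alpha holds 23.3 to 31.5% in the 3 IR+Oligonol libraries and 10.5 to 14.6% in the 3 IR control libraries.

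STK11, encoding LKB1 (chromosome 19, 1177558 to 1228431), had the highest mean level of the 10 genes in both groups on the per-length scale, though with Oligonol its range overlapped that of PRKAB1. It had 3.81, 6.33 and 3.86 CPM in IR+Oligonol libraries, against 8.11, 11.4 and 11.8 CPM in IR control libraries. The groups did not overlap, and Oligonol 2 lay nearest to the controls. The log2 fold change was -1.165 (SE 0.26, adjusted p = 0.0118, edgeR), and 0.19 (adjusted p = 0.322) by library totals alone, so the fall is relative to TMM scaling. With the authors' scaling it was -0.77 (adjusted p = 0.0284). The call was lost without control 2 (-1.18, adjusted p = 0.0614), control 3 (-1.149, adjusted p = 0.0638), Oligonol 1 (-1.02, adjusted p = 0.0603) or Oligonol 3 (-1.04, adjusted p = 0.0624). STK11 has the highest transcript GC of the 10, 63.2%, and its GC bin had a median log2 fold change of -1.05. With the GC trend removed it stood at -0.21 (SE 0.15, adjusted p = 0.408).

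STK11 transcripts per PRKAA1 transcript, a ratio free of scaling that was chosen after the values were seen, numbered 0.929, 2.58 and 1.12 with Oligonol, against 6.14, 10.1 and 12.6 in controls. Kinase-encoding and LKB1-encoding transcripts were near parity in Oligonol 1 and 3, while LKB1 transcripts were several times as abundant in every control. The 2 transcripts stand far apart in GC content, and the part of that in the ratio was not tested.

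NRF1, nuclear respiratory factor 1 (chromosome 7, 129611720 to 129757082), had 1.86, 2.21 and 1.99 CPM with Oligonol and 1.85, 1.505 and 1.09 CPM in controls. The groups were separated only by the small gap between Oligonol 1 and control 1. Its log2 fold change was 0.45 (SE 0.23, adjusted p = 0.136, edgeR), and 0.27 (adjusted p = 0.472) with the GC trend removed. GABPA (chromosome 21, 25734570 to 25772460) had 0.851, 0.434 and 0.611 CPM with Oligonol, against 0.202, 0.234 and 0.185 CPM in controls. All Oligonol libraries lay above the controls, and they differed among themselves more than the controls did. The log2 fold change was 1.62 (SE 0.39, adjusted p = 0.0141), a 3.08-fold rise that DESeq2 did not call (1.57, adjusted p = 0.0647). It held in edgeR when Oligonol 2 was left out, and was lost without control 1 (1.41, adjusted p = 0.0620), control 2 (1.71, adjusted p = 0.0582), control 3 (1.42, adjusted p = 0.0756), Oligonol 1 (1.34, adjusted p = 0.0773) or Oligonol 3 (1.65, adjusted p = 0.0649). At 36.4% transcript GC, GABPA lay in the lowest GC bin, and with the GC trend removed it stood at 0.44 (adjusted p = 0.520).

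TFAM (chromosome 10, 58385345 to 58399220) had 2.08, 1.91 and 2.14 CPM with Oligonol, against 1.06, 1.77 and 1.147 CPM in controls. The groups did not overlap, though control 2 came close to the Oligonol range. The log2 fold change of 0.62 (SE 0.23, adjusted p = 0.0551, edgeR) missed the threshold, and the value was -0.38 (SE 0.18, adjusted p = 0.233) with the GC trend removed. TFAM and GABPA lie in the same lowest GC bin, whose median was 1.20, TFAM below it and GABPA above it. TFAM has an annotated pseudogene, TFAMP1 (chromosome 7), listed at 0.846, 0.568 and 0.560 CPM with Oligonol and 0.579, 0.292 and 0.475 CPM in controls, so reads may be split between them and TFAM's own level is uncertain. TFAM per NRF1 averaged 1.02 ± 0.135 with Oligonol and 0.934 ± 0.322 in controls (SD, n = 3). GABPA per summed GABPB1 and GABPB2, its partner subunits, was 0.311, 0.177 and 0.278 with Oligonol, against 0.126, 0.120 and 0.0859 in controls. The DNA-binding subunit was thus scarcer than its partners summed in every library on the per-length scale. Against GABPB2 alone it was higher in Oligonol 1 (0.851 against 0.735 CPM) and lower in the other libraries. Transcript GC was 36.4% for GABPA, 44.2% for GABPB1 and 46.7% for GABPB2, and the part of that in the ratio was not tested.

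**Figure D3:**
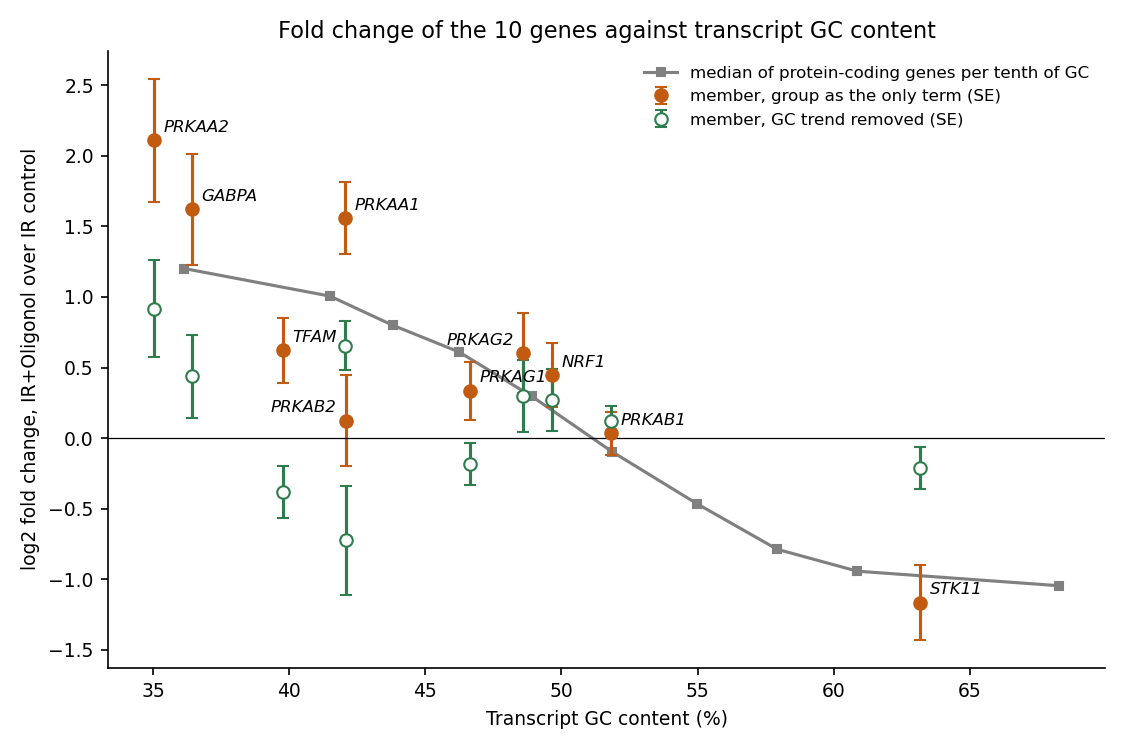
Log2 fold change (IR+Oligonol over IR control, with SE) of the 10 genes against transcript GC content (percent), with group as the only term (filled) and with each library's GC trend removed (open), beside the median of protein-coding genes in each of 10 equal GC bins (grey). PRKAA2, PRKAA1 and GABPA lie above the grey line, PRKAB2 and TFAM below it, and STK11 close to it; by library totals alone STK11 is at 0.19.

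Across the 10 members the log2 fold change ran against transcript GC (Spearman's rho = -0.879, beside -0.851 across 11719 protein-coding genes), both as descriptions over genes measured in the same 6 libraries. It was -0.406 with the GC trend removed across the members. Set against the median of their own GC bin, 6 members were above and 4 below. The widest gaps were PRKAA2 at 0.91 above and PRKAB2 at 0.88 below, followed by TFAM at 0.58 below and PRKAA1 at 0.55 above. STK11 lay 0.12 below and PRKAB1 0.13 above. In level, the order in IR+Oligonol was STK11, PRKAB1, PRKAG1, PRKAA1, TFAM, NRF1, PRKAG2, PRKAB2, GABPA and PRKAA2. In IR control it was STK11, PRKAB1, PRKAG1, NRF1, TFAM, PRKAA1, PRKAG2, PRKAB2, GABPA and PRKAA2. Neighbours whose ranges overlapped with Oligonol were STK11 and PRKAB1, PRKAG1 and PRKAA1, TFAM and NRF1, and the run PRKAG2, PRKAB2, GABPA and PRKAA2. In controls they were the run NRF1, TFAM, PRKAA1, PRKAG2 and PRKAB2.

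Patterns most like those of PRKAA1 and STK11, but not of PRKAA2 and GABPA, were looked for by Pearson's r of log2 CPM over the 6 libraries among 6476 protein-coding genes. For PRKAA1 the nearest were HERC4 (r = 0.9992), FOXP1 (0.9987) and MAGI3 (0.9985), with log2 fold changes of 1.54, 1.17 and 0.90. For STK11 they were PHB2 (0.9997), ADPRS (0.9996) and NUDT1 (0.9996), at -1.17, -1.27 and -1.26. Over 0.95 lay 631 genes for PRKAA1 and 1849 for STK11, so a high r in 6 libraries of 2 groups singles out no gene.

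The other genes of the pathway were followed as 5 lists of 84 genes, of which 74 were tested; falls below are relative to TMM scaling, since by library totals alone 63 were higher and none lower by edgeR (0 lower also at an unadjusted p under 0.05). Upstream regulators of AMPK rose in 7 of 10 tested cases and fell in 1, beside 26 and 23% of all tested genes, with a median log2 fold change of 1.07. Leaving out a library gave 1 higher and 0 lower without control 3, 3 and 0 without Oligonol 3, 5 and 0 without control 2 or Oligonol 1, 5 and 1 without control 1, and 7 and 1 without Oligonol 2. Over all tested genes these fits also called fewer, except without Oligonol 2, with 582 higher and 200 lower of 20071 without control 3. PPM1A, a phosphatase reported to act on AMPK, rose to 5.95, 4.91 and 5.82 CPM with Oligonol, against 2.11, 1.98 and 1.37 CPM in controls (log2 fold change 1.62, SE 0.21, adjusted p = 0.00610, edgeR). FNIP2, a partner of folliculin (1.09, SE 0.19), and CAB39, the MO25 scaffold of the LKB1 complex (1.05, SE 0.20), also rose. The list thus mixes a phosphatase and a folliculin partner with parts of the LKB1 complex, so its count gives no direction for AMPK activity. CAMKK2, the alternative AMPK kinase, had 1.40, 1.76 and 1.20 CPM with Oligonol and 1.29, 1.02 and 1.52 CPM in controls, and overlapped between groups (0.16, adjusted p = 0.620). Once the GC trend was removed PPM1A (0.70, adjusted p = 0.0443) and CAMKK2 (0.89, adjusted p = 0.0488) passed, and no other gene of the list did. Neither passed with the GC trend removed and any 1 library left out (lowest adjusted p = 0.0528 for PPM1A and 0.0829 for CAMKK2). With all libraries kept and the trend removed, the list median was 0.31. Its tested genes had a median transcript GC of 42.8%, beside 50.3% over tested protein-coding genes.

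Other kinases that LKB1 activates rose in 3 of 10 tested cases and fell in 2, near the 26 and 23% of all tested genes, with a median of -0.17. They numbered 3 higher and 4 lower without Oligonol 2, 1 and 1 without control 1, and 1 and 0 without any of the other libraries. All tested genes likewise had fewer calls in these fits, except without Oligonol 2. SNRK, a sucrose non-fermenting-related kinase, had 3.08, 2.57 and 2.47 CPM with Oligonol, against 1.10, 0.789 and 0.652 CPM in controls. Its groups lay far apart (log2 fold change 1.70, SE 0.24, adjusted p = 0.00620, edgeR), and it passed with the GC trend removed (1.21, SE 0.21, adjusted p = 0.0336). With both the trend removed and a library left out it passed in 1 of 6 fits, with values of 1.04 to 1.42. BRSK1, a kinase of neuronal polarity, fell under TMM scaling (-0.79, SE 0.23, adjusted p = 0.0225) but was at 0.55 by library totals. MARK3, a microtubule affinity-regulating kinase, rose (0.71, SE 0.21, adjusted p = 0.0252). Removing the GC trend left BRSK1 at 0.11 and MARK3 at 0.05.

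AMPK substrates rose in 5 of 19 tested cases and fell in 7, beside 26 and 23% of all tested genes, with a median of 0.23. Leaving out 1 library gave 2 to 3 higher and 1 to 8 lower, with 8 lower only without Oligonol 2, 3 without control 1 or 2, and 1 without control 3, Oligonol 1 or Oligonol 3. Calls over all tested genes moved in the same fits, with 4916 lower without Oligonol 2 and 200 lower without control 3. None passed the threshold in edgeR with the GC trend removed (4 higher and 0 lower at an unadjusted p under 0.05). GFPT1, the entry enzyme of the hexosamine pathway, rose to 2.42, 2.30 and 2.43 CPM with Oligonol, against 1.07, 1.05 and 0.881 CPM in controls (log2 fold change 1.26, SE 0.19, adjusted p = 0.00649, edgeR). ULK1, the kinase that starts autophagy, fell to 1.11, 1.58 and 1.21 CPM with Oligonol, against 3.48, 4.16 and 2.49 CPM in controls (-1.37, SE 0.25). After removal of the GC trend GFPT1 stood at 0.30 and ULK1 at -0.36, and ULK1 was at -0.035 by library totals.

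PGC-1 coactivators and their partners rose in 5 of 14 tested cases and fell in 2, beside 26 and 23% of all tested genes, with a median of 0.42. They numbered 0 higher and 0 lower without control 3 by edgeR (5 and 2 at an unadjusted p under 0.05), 2 and 1 without control 2, 3 and 1 without Oligonol 1 or 3, 4 and 1 without control 1, and 4 and 4 without Oligonol 2. Without control 3 edgeR called 582 higher and 200 lower of all 20071 tested genes. PPARGC1A itself, encoding PGC-1 alpha, did not pass the filter on low counts. It had 5.36, 3.04 and 9 estimated counts with Oligonol, against 0, 2.10 and 0.670 in controls. These are per-length values, and its read numbers were not worked out. The NAD-dependent deacetylase SIRT1 (log2 fold change 1.46, SE 0.25) and the cAMP-responsive factor CREB1 (1.47, SE 0.28) rose, and the nuclear receptor ESRRA fell (-1.36, SE 0.25). GABPB1, the partner of GABPA, had a log2 fold change of 0.54 (SE 0.23, adjusted p = 0.0861, edgeR). None of this list passed in edgeR with the GC trend removed (1 higher and 1 lower at an unadjusted p under 0.05), with SIRT1 at 0.40, CREB1 at 0.77, ESRRA at -0.38 and GABPB1 at -0.18.

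Genes of mitochondrial DNA transcription and maintenance, the proteins that work beside TFAM, rose in 4 of 21 tested cases and fell in 3, both smaller shares than the 26 and 23% of all tested genes, with a median of 0.42. They numbered 0 higher and 0 lower without control 3 by edgeR (3 and 4 at an unadjusted p under 0.05), 2 and 1 without control 2, 1 and 1 without Oligonol 1 or 3, 3 and 3 without control 1, and 3 and 5 without Oligonol 2. Of all 20071 genes tested without control 3, edgeR called 582 higher and 200 lower. POLRMT, the mitochondrial RNA polymerase, had 2.13, 4.16 and 2.87 CPM with Oligonol, against 7.31, 7.28 and 8.47 CPM in controls (log2 fold change -1.34, SE 0.25). TFB1M, a methyltransferase of the small mitochondrial ribosomal RNA, rose (1.42, SE 0.28), and LONP1, the matrix protease that degrades TFAM, fell under TMM scaling (-0.98, SE 0.21) but was at 0.38 by library totals. TFB2M, which joins TFAM and POLRMT in starting transcription, had 1.14 ± 0.122 CPM with Oligonol and 1.03 ± 0.158 CPM in controls (0.15, adjusted p = 0.615, edgeR). None of these genes passed in edgeR with the GC trend removed (2 higher and 4 lower at an unadjusted p under 0.05), and POLRMT stood at -0.37, TFB1M at 0.59, LONP1 at -0.05 and TFB2M at -0.74.

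**Figure D4:**
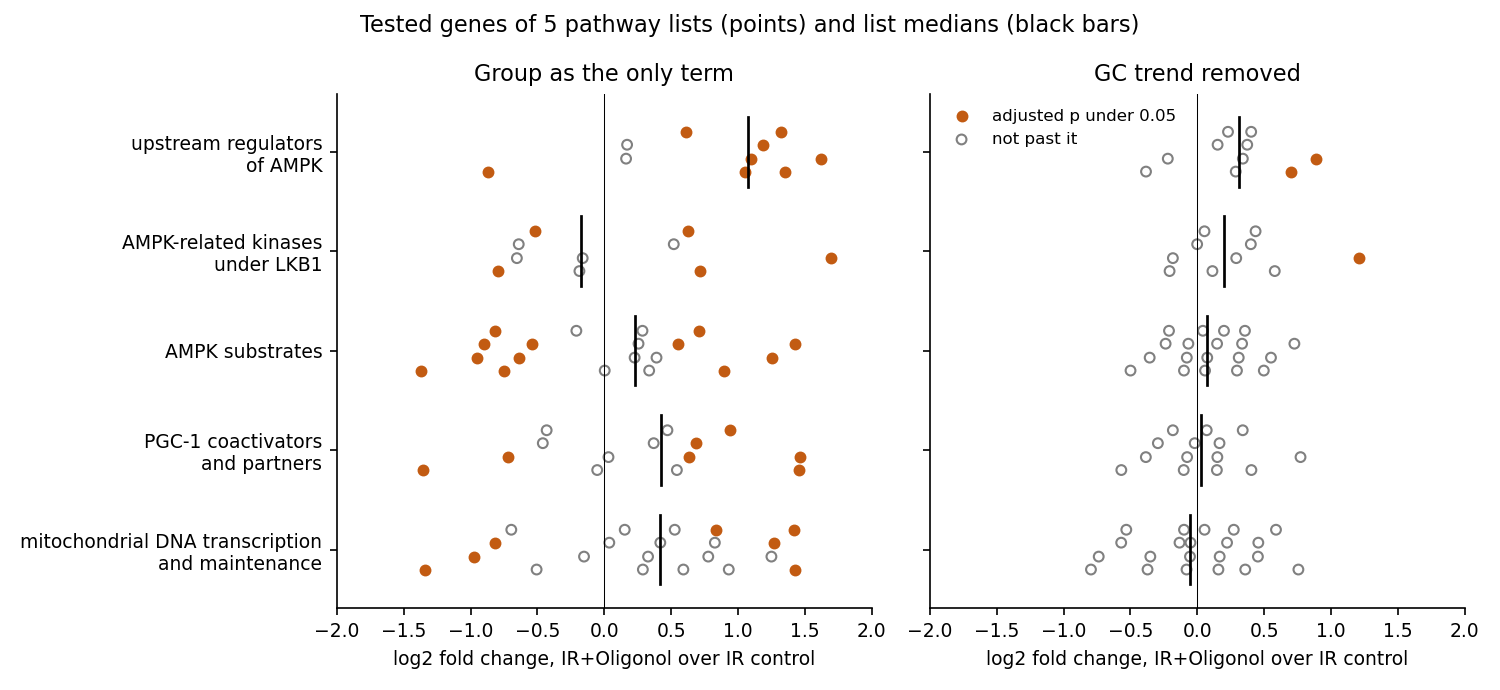
Log2 fold change (IR+Oligonol over IR control, under TMM scaling) of the tested genes of 5 pathway lists, with group as the only term (left) and with each library's GC trend removed (right), with list medians as black bars and filled points past an adjusted p of 0.05. On the left 24 genes pass above 0 and 15 below, and on the right 3 pass above 0 and none below; by library totals alone 63 pass above 0 and none below.

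Over the 5 lists 24 of 74 tested genes rose and 15 fell, near the 26 and 23% of all tested genes. Their median log2 fold change was 0.33, beside 0.15 over all tested genes. The counts moved with single libraries, as did those over all tested genes (582 to 4576 higher and 200 to 4916 lower). The list counts were 15 higher and 9 lower without control 1, 12 and 5 without control 2, and 4 and 1 without control 3. They were 12 and 3 without Oligonol 1, 11 and 3 without Oligonol 3, and 20 and 22 without Oligonol 2. Of the list genes named by rule that passed, PPM1A, SNRK, ULK1 and GFPT1 were among those that passed whichever library was left out. FNIP2, ESRRA, CREB1, SIRT1 and POLRMT lost their calls only without control 3, CAB39 without control 3 or Oligonol 3, and TFB1M without control 2 or 3. BRSK1 and LONP1 lost theirs without control 2, control 3, Oligonol 1 or Oligonol 3, and MARK3 in every such fit except that without Oligonol 2. The lowest and highest log2 fold changes over these fits were 0.48 and 0.69 for MARK3, 1.18 and 1.62 for TFB1M, and -1.35 and -0.86 for LONP1 under TMM scaling.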

How the data were processed

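Stranded total RNA libraries of SH-SY5Y cells were sequenced from both ends for 100 nt (labels' protocols). Tools listed without role or order in the submitters' processing notes are kallisto 0.46.1, edgeR and FastQC, with the build GRCh38.p13. The authors deposited estimated counts per gene, not whole numbers, and a scaled signal, which within a library was the estimated count times 1 constant. No source used here says how transcripts were summed to genes. Estimated counts were rounded, filtered by filterByExpr, scaled by TMM and tested with edgeR 4.0.16 (quasi-likelihood, robust, 2-sided, group only, R 4.3.3), with Benjamini-Hochberg adjustment over 16574 genes. Printed CPM are unrounded counts over TMM library sizes.

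No label says that the 3 libraries of a group came from separate cultures, so p-values measure only the spread between these libraries, which may be technical. The 10 members and the gene lists were chosen with earlier results of these data known. Named genes were all members, the 3 list genes with the smallest p in each list, PPARGC1A, CAMKK2, POLRMT, TFB2M and GABPB1. A gene that this rule names and a marker gene are not reported here. Transcript GC and length are medians over transcripts of GENCODE release 29, matched by identifier for 58254 of 61860 genes. The GC trend was a natural spline (5 degrees of freedom) of each library's log2 CPM deviations on transcript GC in protein-coding genes, entered as an offset, and it also removes any true change that follows GC. Read numbers are approximate: fragment length and the worth of 1 read were fitted in each library on low genes with 1 transcript (70.2 to 72.7% of values then within 0.05 of a whole read), and they assume a coding transcript of median length. The lowest value of a member was 39.8 such reads. Alternatives were other scalings, DESeq2 1.42.0, limma 3.58.1 (voom), other filters, protein-coding genes alone, a replicate block, each library left out and other thresholds. The fits were also run on simulated whole counts without a GC trend. That run cannot show how they behave under the GC trend of these data.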

Additional observations from a re-analysis of the deposited data

How the results depend on the processing

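Each count is given as higher and lower with Oligonol. The 3 and 1 called members became 9 and 0 by library totals, 8 higher with the authors' scaling (an alternative chosen after seeing the data), 5 higher among protein-coding genes only or with at least 10 estimated counts in every library, where PRKAA2 and GABPA gave no value, and 0 lower at a threshold of 0.01. The 4304 and 3808 genes called among all 16574 became 11293 and 37 by library totals and 6396 and 1666 with the authors' scaling. At 0.01 they were 1401 and 779. They were 3983 and 3519 of 11724 among protein-coding genes only, and 3513 and 3061 of 10968 with at least 10 counts. With no filter they were 2964 and 1603 of 42070. The 24 and 15 genes of the pathway lists became 63 and 0 by library totals, 40 and 5 with the authors' scaling, 12 and 3 at 0.01, 6 lower with no filter and 9 lower with at least 10 counts. With the GC trend removed the counts were 0 and 0 for members (1 and 0 at an unadjusted p under 0.05), 468 and 415 for all genes, and 3 and 0 for lists.

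Leaving out 1 library gave 0 to 3 higher and 0 to 1 lower members, 582 to 4576 and 200 to 4916 genes, and 4 to 20 and 1 to 22 list genes. With the GC trend also removed these were 0 and 0 members, 0, 0, 0, 0, 238 and 247 higher and 0, 0, 0, 0, 243 and 252 lower genes, and 0 to 1 and 0 list genes. Deviations of same-numbered libraries from their group means correlated at r = 0.087, -0.009 and -0.147. With 3 libraries per group these values cannot show whether same-numbered libraries shared a culture or a day. A replicate block gave 3 and 1 members, 3560 and 3470 genes and 20 and 11 list genes. In this balanced design a block cannot change the differences in alpha, beta and gamma share. They were -4.84, -0.866 and -3.57 percentage points, so the block is no check of them. The block with the GC trend removed gave 0 and 0 calls by edgeR in all 3 sets, with 3992 genes at an unadjusted p under 0.05.

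Signs changed for 5 members, of which only STK11 was called. PRKAB1 was at -0.035 with RLE scaling, -0.037 with DESeq2, and -0.18 to 0.067 with 1 library left out. STK11 was at 0.19 by library totals. With the GC trend removed, then with the block too, PRKAB2 was at -0.72 and -0.79, PRKAG1 at -0.18 and -0.19, and TFAM at -0.38 and -0.37. With 1 library left out PRKAB2 ranged over -0.32 to 0.37. With the trend removed and each library left out in turn, values from lowest to highest were -1.13, -0.85, -0.77, -0.68, -0.54 and -0.42 for PRKAB2, -0.25, -0.25, -0.21, -0.20, -0.15 and -0.11 for PRKAG1, and -0.53, -0.48, -0.37, -0.36, -0.29 and -0.27 for TFAM. The beta share difference ranged over -3.41 to 1.32 percentage points. TFAM passed in 6 alternatives with the GC trend kept (library totals, authors' scaling, voom, upper-quartile scaling, protein-coding genes only and at least 10 counts; adjusted p = 0.00253 to 0.0446). The cause of these changes was not tested. Depth limits the scarce members in controls, at about 39.8 to 95.05 reads per library for PRKAA2, 58.0 to 66.3 for GABPA and 53.9 to 85.0 for TFAM.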
